A study of Mus musculus with 8 samples.

Results

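The comparison described here sets sh8 against WT cells after hormonal induction, at day +2 and day +4. WT is the unmodified 3T3-L1 line, mouse preadipocytes that become fat cells in culture, and sh8 is the same line with stably transfected shRNA-8, one of the hairpins made to target slincRAD, a long noncoding RNA. Both lines were grown in 10% newborn calf serum and received, from confluence at day 0, a mix of 0.5 mM 3-isobutyl-1-methylxanthine (which raises cAMP), 1 µM dexamethasone (a glucocorticoid) and 167 nM insulin. The rule took 4 of the series' 8 arrays, 1 for each line at each of these 2 days. The other 4, of both lines at day -2 and day 0, served to choose the probes and to show how the lines differed before. Of 39383 probes, 24133 were kept because they were well above background on all 4 arrays of days -2 and 0, and these gave 19915 genes and unnamed transcripts, 13862 of them named. The labels do not say whether sh8 is 1 clone, no line with a control hairpin was among the samples, and slincRAD itself was not analysed here, so no value checks the label of either line.

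Confluent 3T3-L1 cells leave the cell cycle, and after induction they are known to re-enter it for a limited time, called mitotic clonal expansion, before they fill with lipid. C/EBP beta and delta appear first and then induce PPAR gamma and C/EBP alpha, which together drive the genes of lipid uptake, storage and release. Dexamethasone, cAMP and insulin each add a set of direct target genes.

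On the 4 arrays the intensity at the 75th percentile was lowest, 760, in sh8 at day +4 and highest, 885, in WT at day +2, and 72.4% to 81.7% of probes were well above background, against 64.9% to 68.5% at days -2 and 0. All values below are log2 levels on a scale where 0 is the array's own 75th percentile. The 11 fibroblast and preadipocyte markers on the array were well above background on all 8 arrays. Markers of lung epithelium were also present: all 17 on the array were well above background on each of the 4 arrays of days +2 and +4, against 7 to 10 on the earlier ones. Summed on the linear scale relative to the 75th percentile, they came to 24.8 and 31.7 in WT and 30.6 and 37.9 in sh8 at days +2 and +4, and to between 9.77 and 12.3 before. The probe rule removed 10 of the 17, whose summed level lay between 0.090 and 0.138 before and between 4.31 and 6.60 after. It kept 7, among them Scgb1a1, which stood between -3.69 and -3.16 before and between 1.08 and 1.46 after in both lines. Single lung markers differed between the lines by -1.60 to 1.86. The 6 red blood cell markers on the array came to 2.28 and 1.98 in WT and 2.62 and 3.37 in sh8 at days +2 and +4, against 0.357 to 0.669 before. The part of either marker list in the results was not tested. Just outside the rule, 1192 probes were well above background on 3 of the 4 earlier arrays. Their median level after induction was -4.96, and their median line difference was 0.34, against -0.90 and 0.062 for the kept probes.

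After induction limma, with day in the model, called 9683 of 19915 genes and transcripts (48.6%) as different between sh8 and WT, at a Benjamini-Hochberg adjusted p under 0.05. Of these 5485 (27.5% of those tested) were higher and 4198 (21.1%) lower in sh8. At least 2-fold differences were called for 1604 higher (8.05%) and 994 lower (4.99%). With quantile scaling the split was 4144 higher and 4026 lower, and with the authors' own values 4149 and 4038. The median difference over all genes was 0.078, at day +2 0.049 and at day +4 0.094. The median absolute gap between the 2 days, taken per gene in either direction, was 0.18. Each line and day has 1 array, so the p-values measure how far the line difference varied between the days, not between cultures. Both WT arrays lay at positions 1 and 2 and both sh8 arrays at positions 3 and 4 of a slide, so line and slide position cannot be told apart. When both arrays of day +2 or of day +4 were left out, a model of the other 6 arrays called 4191 and 5592 genes. With a looser probe filter, which asks for signal well above background on any 2 of the 8 arrays, it was 5185 of 26460. Where a list's count below moves by more than 1.5 times in these 3 settings, all 3 are given beside it. With 1 day left out, only 1 array per line remains after induction. Those p-values then rest on how the line difference varied between days -2 and 0, not on repeats of the remaining day. Each list's counts are to be set against the 27.5% higher and 21.1% lower over all genes.

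**Figure D1:**
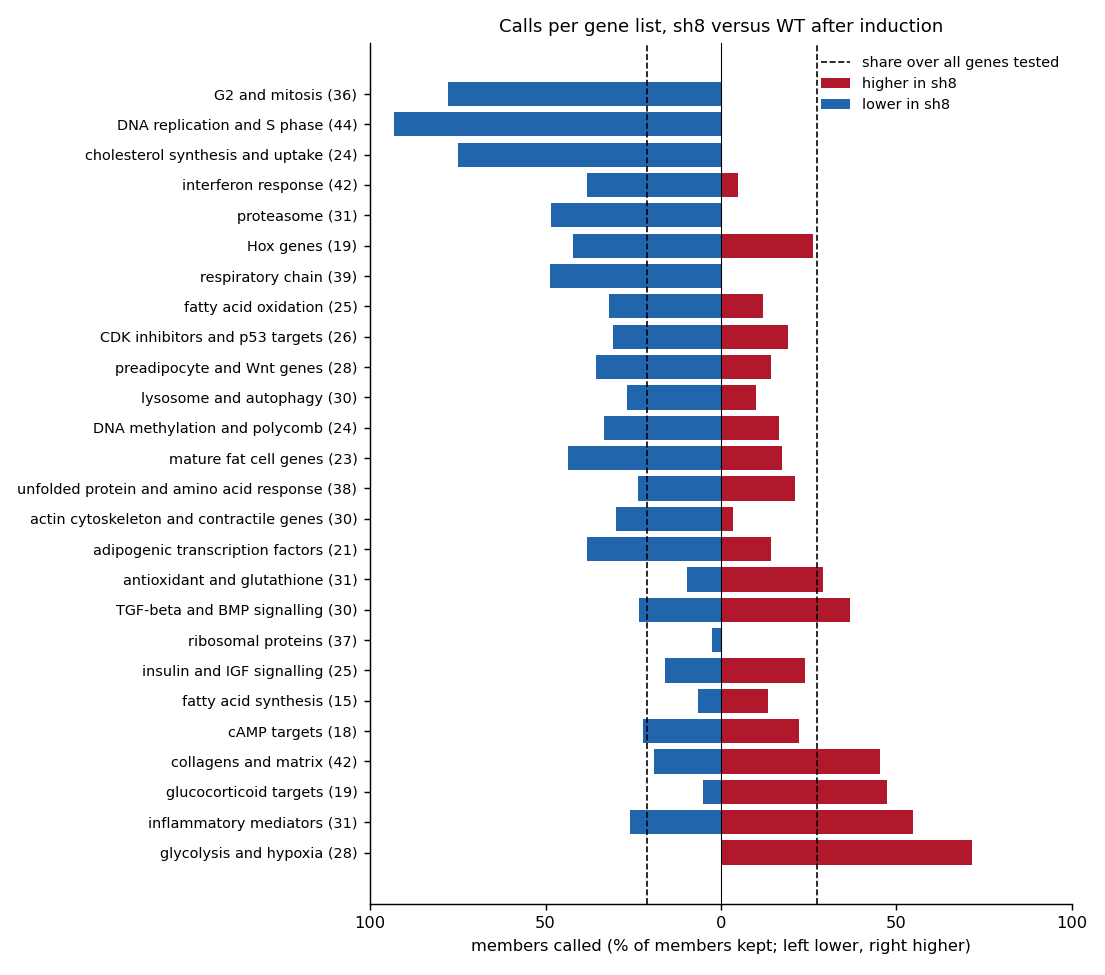
Share of each gene list called lower (blue, left) or higher (red, right) in sh8 after induction, in % of the members kept (their number in brackets), ordered by the list's median difference. Dashed lines mark the shares over all genes tested, 21.1% lower and 27.5% higher. The lists of DNA replication, mitosis and cholesterol synthesis extend farthest to the left and the glycolysis list farthest to the right.

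Among genes well above background on all 4 arrays, the 10 with the largest differences each way lay outside the gene lists. Mst1, which encodes macrophage-stimulating protein, stood at -0.11 and 0.05 in WT and at -5.38 and -5.45 in sh8 at days +2 and +4. The lines did not overlap and the difference was 41.8-fold (-5.38 ± 0.13 SE, adjusted p = 0.000914 in limma). Slc7a2, a transporter of arginine and lysine, stood at -1.21 and -0.92 in WT and -6.21 and -5.74 in sh8, a 30.1-fold difference. Lrrc17 (15.6-fold), Tsnax, the partner of the RNA-binding protein translin (14.7-fold), Syt13, a synaptotagmin (13.4-fold), Mageb3 (18.6-fold), Spin2c (13.3-fold), Tmcc2 (10.8-fold), Ppef1 (14.6-fold) and Grpr, the gastrin-releasing peptide receptor (13.3-fold), were lower too. On the other side Gzmc, a granzyme, stood at -5.61 and -5.11 in WT and 0.17 and -0.14 in sh8, a 41.4-fold difference. Pnp2, a purine nucleoside phosphorylase, was 29.5-fold higher and Slco4a1, an organic anion transporter, 23.7-fold higher. Several of these sizes depended on the background correction. With normexp the log2 difference was -3.46 in place of -5.38 for Mst1, -2.63 in place of -4.91 for Slc7a2 and 3.45 in place of 5.37 for Gzmc. For Ppef1 it was -2.10 in place of -3.87, while Tsnax changed little (-3.70 and -3.88).

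Cnr1, the cannabinoid receptor, was 15.6-fold higher in sh8, Mctp1 18.4-fold and Cd55, which restrains complement on the cell surface, 14.7-fold. Cfhr2 (13.5-fold) and Gm4788 (14.5-fold) belong to the complement factor H family. Such close relatives can share probe signal, and a second Cfhr2 probe differed by 1.54 only. F730043M19Rik was 13.0-fold higher. With normexp the log2 difference of Cnr1 was 2.13 in place of 3.96, and that of Cfhr2 3.71 in place of 3.76. Prss50, a testis serine protease, had the largest difference (46.0-fold higher) on its brighter probe, but its second probe differed by -0.32, and without day +2 its adjusted p was 0.0658. The arrays of days -2 and 0 chose the probes but did not enter this ranking. They showed the same direction for 10 of 10 high and 10 of 10 low genes, by 1.81 to 3.91 and by -1.50 to -4.97. The share over all kept genes is not given here. On those arrays, too, line and slide position cannot be told apart.

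The cell cycle genes were lower together. Of 44 DNA replication and S phase genes, 41 were lower in sh8 and 0 higher, and 35 of the 41 by at least 2-fold. The list's median difference was -1.14 at day +2 and -1.84 at day +4, against -0.053 at day -2 and -0.53 at day 0. In WT the median level of the list was 1.67 at day -2, -0.042 at day 0, 1.36 at day +2 and 1.11 at day +4. In sh8 it was 1.53, -0.37, 0.13 and -0.79. Both lines were thus low at confluence, and the level after induction came back near that of day -2 in WT and not in sh8. In RNA from whole cultures, fewer cycling cells and less of each RNA per cell cannot be told apart.

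Subunits of the replicative helicase were among them. Mcm6 stood at 3.89 and 3.70 in WT and 1.81 and 1.25 in sh8, with no overlap, a 4.80-fold difference (-2.26 ± 0.14 SE, adjusted p = 0.00136). Mcm2, another subunit, was 4.78-fold lower. Gins2, of the complex that activates the helicase, was 3.73-fold lower, and Chaf1b, which loads histones behind the fork, 4.34-fold lower. Pcna, the sliding clamp of DNA polymerase, was 2.31-fold lower, at 5.40 and 5.67 in WT and 4.25 and 4.41 in sh8. Uhrf1, which brings the maintenance methyltransferase to new DNA, was at 2.24 and 1.99 in WT and -0.01 and -1.26 in sh8, 6.73-fold lower. Of the 3 genes without a call, Tyms, the thymidylate synthase, differed by 0.38 and 0.18 at days +2 and +4.

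E2F factors switch on S phase genes, and the CHR element is a promoter element of genes that act in G2 and mitosis. The promoters were searched on both strands, from 250 bases before to 50 after the start. TTTCCCGC, TTTCGCGC, TTTGCCGC and TTTGGCGC were taken for E2F, and TTTGAA and TTCGAA for CHR, and no E2F word holds a CHR word. An E2F match was found for 15 of the 35 S phase members with a promoter in the RefSeq table (42.9%), against 2.61% of all 27025 genes there and 4.21% of the kept ones. A CHR match was found for 24 of 30 mitotic members (80.0%), against 21.7% of all and 17.0% of kept genes. Members with and without a call were counted, so these shares describe the lists and not the line difference. A gene with several promoters was counted as matched if any of them held a match. A match describes the letters only. The sequences shown are from RefSeq on GRCm38.p6, with the matches in capitals. For Uhrf1 (E2F, chr17:56304063-56304362, plus strand) it is 1 of the gene's 2 promoters. The other sequence is the promoter of the spindle checkpoint kinase Bub1b (CHR, chr2:118597961-118598260, plus strand). These genes were taken because both were among the lowest of their lists.
Uhrf1: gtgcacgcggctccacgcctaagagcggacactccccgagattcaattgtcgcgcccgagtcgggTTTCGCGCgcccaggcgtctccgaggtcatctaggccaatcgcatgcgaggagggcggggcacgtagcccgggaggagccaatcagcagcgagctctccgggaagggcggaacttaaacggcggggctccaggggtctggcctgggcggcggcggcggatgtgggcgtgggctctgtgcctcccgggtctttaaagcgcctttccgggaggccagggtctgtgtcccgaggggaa
Bub1b: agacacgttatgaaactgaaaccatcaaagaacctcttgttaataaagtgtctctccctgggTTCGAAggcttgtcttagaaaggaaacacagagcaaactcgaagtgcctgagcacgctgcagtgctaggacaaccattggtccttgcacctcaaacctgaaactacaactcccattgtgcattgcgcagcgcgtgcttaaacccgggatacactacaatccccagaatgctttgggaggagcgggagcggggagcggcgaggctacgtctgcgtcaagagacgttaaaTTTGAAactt

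Of 36 kept genes of G2 and mitosis, 28 were lower in sh8, all by at least 2-fold, and 0 were higher. With 1 day left out it was 33 without day +2 and 25 without day +4, when 3 were called higher, and with the looser filter it was 9 lower. The list's median difference was -0.99 at day +2 and -2.22 at day +4, and all 36 members had a lower line difference at day +4 than at day +2. Mad2l1, of the spindle checkpoint, stood at 3.27 and 3.05 in WT and 1.48 and 0.48 in sh8, 4.54-fold lower. Foxm1, the transcription factor of mitotic genes, was 3.32-fold lower, and Bub1b 4.54-fold lower, at 0.53 and -0.05 in WT and -0.94 and -2.95 in sh8. Racgap1 (2.31-fold) and Ndc80 (2.55-fold), which act in cytokinesis and at the kinetochore, were lower as well.

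A few mitotic genes went against the list at day +2. Mki67, the proliferation marker Ki-67, was at -1.15 and -2.23 in WT and at 1.14 and -2.66 in sh8, a line difference of 2.29 at day +2 and -0.43 at day +4. The kinesins Cenpe (1.33 and -0.97), Kif20b (0.86 and -1.17) and Kif23 (0.17 and -1.97) showed the same order of days. None of these 4 had a call over both days, and each single-day difference comes from 1 array per line. Kif22, another kinesin, differed by -1.47 and -3.45 and was called lower (adjusted p = 0.0119, and 0.0672 with the looser filter).

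**Figure D2:**
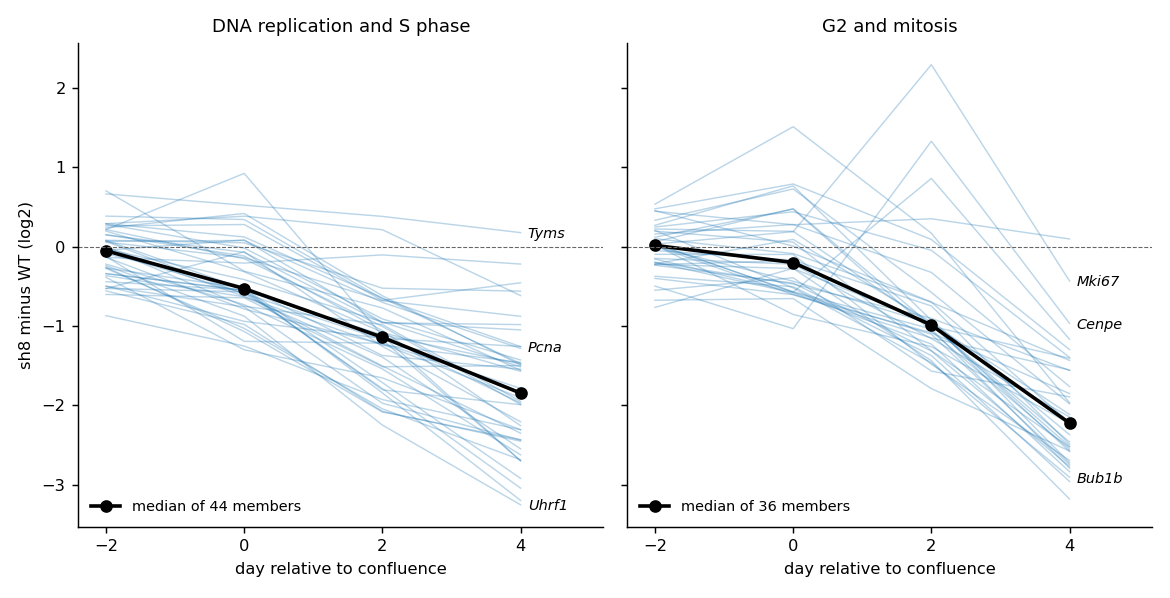
Line difference (sh8 minus WT, log2) of the 44 S phase and 36 mitotic genes at the 4 days, 1 thin line per gene and the median in black. The medians fall from near 0 at day -2 to -1.84 and -2.22 at day +4, and a few mitotic genes, Mki67 highest, lie above 0 at day +2.

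Genes that restrain the cycle moved both ways, with 19.2% called higher and 30.8% lower, against 27.5% and 21.1% of all genes. Of 26 CDK inhibitors and p53 targets 5 were higher and 8 lower (0 and 1 without day +2, 0 and 4 without day +4, 1 and 1 with the looser filter). Cdkn1a, which encodes p21, was at 0.73 and 0.77 in WT and 1.18 and 1.16 in sh8, 1.33-fold higher (adjusted p = 0.0348). Without day +2 and day +4 that p was 0.215 and 0.160, with the looser filter 0.0956, and the dimmer second probe differed by -0.16 (averaged over probes, adjusted p = 0.365). Cdkn2c, the CDK4 inhibitor p18, was 3.32-fold lower (adjusted p = 0.00159), at 2.15 and 2.00 in WT and 0.52 and 0.17 in sh8. Among 24 genes of DNA methylation and polycomb, 4 were higher and 8 lower (2 and 2 without day +2, 4 and 3 without day +4, 2 and 3 with the looser filter). Ezh2, the polycomb histone methyltransferase, was 2.62-fold lower, and Dnmt1, the maintenance methyltransferase, 1.41-fold lower (adjusted p = 0.0363, but 0.0579 without day +2, 0.223 without day +4 and 0.107 with the looser filter). Tet2, which oxidises methylcytosine, was 2.37-fold higher and Jarid2, a polycomb partner, 2.68-fold higher. The shares of the DNA methylation and polycomb list were 16.7% higher and 33.3% lower.

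The fat cell genes split. Of 23 mature fat cell genes kept, 10 were lower and 4 higher in sh8 (9 and 2 without day +2, 8 and 2 without day +4, 8 and 0 with the looser filter), with a median of -0.12. Plin4, a coat protein of lipid droplets, was at 2.13 and 2.23 in WT and -0.91 and -0.33 in sh8, 6.98-fold lower (-2.80 ± 0.16 SE, adjusted p = 0.00129). Fabp5 and Fabp4, the fatty acid carriers, were 4.64-fold and 2.54-fold lower. Fabp4 stood at 4.16 and 5.18 in WT and 2.95 and 3.70 in sh8, higher at day +4 in both lines and without overlap between them. Lpl, lipoprotein lipase, was 2.80-fold lower and Agt, the angiotensin precursor, 3.65-fold lower. Cd36, the fatty acid receptor, stood at -1.90 and 0.15 in WT and -2.56 and -1.78 in sh8 (adjusted p = 0.0225, and 0.0929 with the looser filter).

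The higher members were enzymes and regulators of lipid release and esterification. Angptl4, which inhibits Lpl, differed by 0.76, Mgll, which cleaves monoacylglycerol, by 0.82, Dgat1, of triglyceride synthesis, by 0.59 and Lipe, the hormone-sensitive lipase, by 0.49. Their adjusted p lay between 0.0101 and 0.0217. With the looser filter it was 0.0556 to 0.0785, and each also lost its call without at least 1 of the 2 days. The probe rule left 10 fat cell genes out. Adipoq, which encodes adiponectin, was at -4.51 and -1.50 in WT and -4.92 and -5.01 in sh8, and Cfd, adipsin, at -4.42 and -2.64 in WT and -3.79 and -5.44 in sh8. Both were higher at day +4 than at day +2 in WT and not in sh8. Of the 10, 6 were higher and 4 lower in sh8 at day +2, and 4 higher and 6 lower at day +4. Not all of these signs rest on signal above background. Pck1 was well above background on 0 of the 2 WT arrays and 1 of the 2 sh8 arrays. Lep, also left out, was so on 0 arrays of either line. Cidec, a lipid droplet protein, was higher in sh8 by 1.46 and 0.49, and Mrap, the accessory protein of the ACTH receptor, by 1.44 and 0.40. These differences were not tested.

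Among 21 adipogenic transcription factors 8 were lower and 3 higher (1 and 0 without day +2, 4 and 0 without day +4, 3 and 2 with the looser filter). Pparg was at 1.63 and 1.64 in WT and -0.32 and -0.20 in sh8, 3.73-fold lower (-1.90 ± 0.12 SE, adjusted p = 0.00135). It stood at 0.57 on both earlier WT arrays and at -0.58 and -0.84 on those of sh8. Its line difference before induction was -1.28, and the change to after, -0.62, did not pass (adjusted p = 0.0909). Srebf1, the lipogenic factor, was 1.83-fold lower (adjusted p = 0.00618, but 0.0550 without day +2 and 0.0853 without day +4). The early factors Cebpb (-0.10 ± 0.17 SE, adjusted p = 0.639) and Cebpd (0.19 ± 0.13 SE, adjusted p = 0.274) gave no call and stood between 6.11 and 6.82 on all 4 arrays.

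Klf15, a later factor induced by glucocorticoids, was higher, at -3.33 and -2.84 in WT and -1.69 and -0.99 in sh8 (3.35-fold, adjusted p = 0.00159, but 0.103 without day +2 and 0.121 without day +4). Cebpa differed by 0.52 (adjusted p = 0.0256) on a dim probe at -4.12 and -3.50 in WT and -3.46 and -3.11 in sh8. That call was lost with quantile scaling (0.150), normexp (0.0624), the authors' values (0.151), the looser filter (0.0861), all 8 arrays in the model (0.0600) and without day +2 (0.309) or day +4 (0.122). Nfib was 1.67-fold higher on its brightest probe, and 4 other probes differed by -0.091 to 0.23. Its call was lost when probes were averaged (adjusted p = 0.227) and without day +2 (0.112) or day +4 (0.172).

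**Figure D3:**
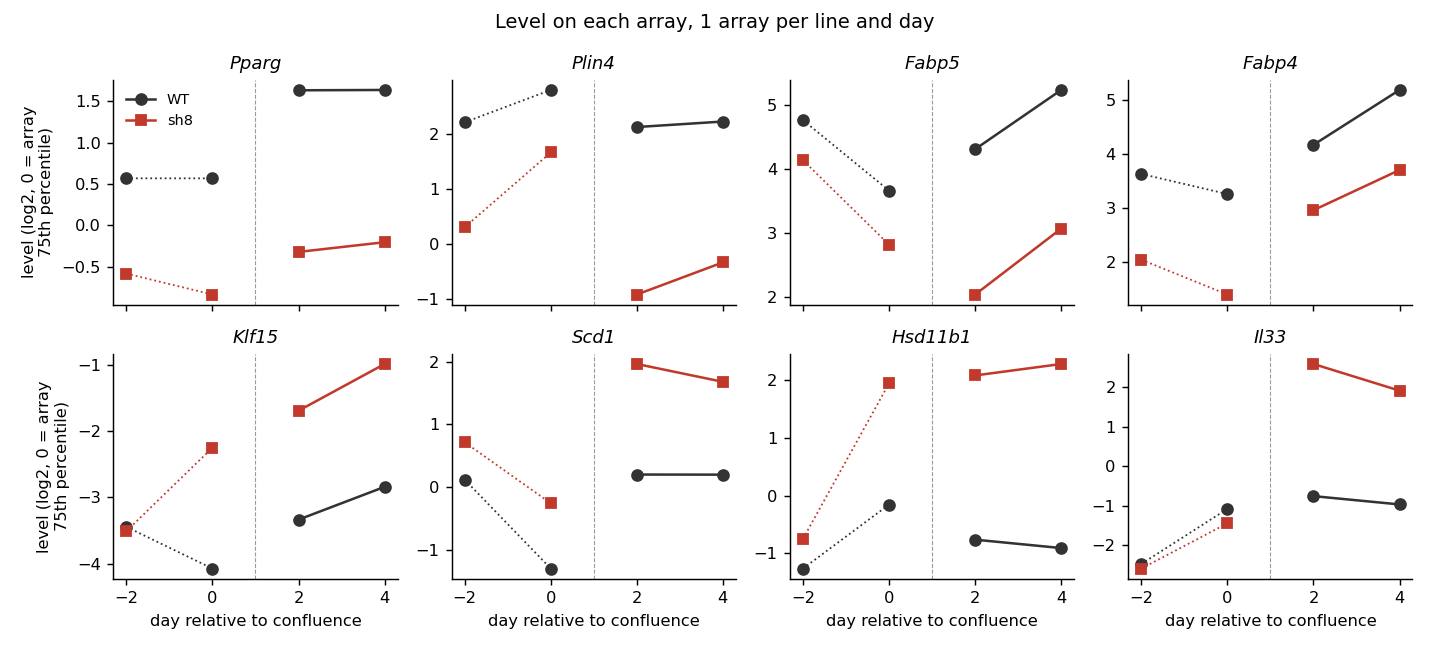
Level of 8 genes on each array (log2, 0 = the array's 75th percentile) in WT (dark circles) and sh8 (red squares), 1 array per point. The dashed line separates the slides of days -2 and 0 and of days +2 and +4. Pparg, Plin4, Fabp5 and Fabp4 lie lower, and Klf15, Scd1, Hsd11b1 and Il33 higher, in sh8 at days +2 and +4.

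Genes of cholesterol synthesis were lower in sh8. Of 24 genes of cholesterol synthesis and uptake 18 were lower and 0 higher, with medians of -0.58 at day +2 and -1.18 at day +4 (12 without day +2, 5 without day +4, 7 with the looser filter). Lss, lanosterol synthase, was at -2.75 and -3.01 in WT and -4.28 and -4.51 in sh8, 2.86-fold lower (adjusted p = 0.00176). Insig1, which holds SREBP proteins in the endoplasmic reticulum, was 2.09-fold lower. Msmo1 and Cyp51, which act after Lss, were 2.76-fold and 2.96-fold lower, and without day +4 their adjusted p was 0.0587 and 0.0991. With normexp the log2 difference was -0.77 in place of -1.51 for Lss and -0.61 in place of -1.06 for Insig1. For Cyp51 it was -1.16 in place of -1.56, while Msmo1 changed little (-1.43 and -1.47). The list's median line difference had been -0.88 before induction. The sterol element was searched as TCACNCCAC on both strands of the same promoter window. It was found for 1 of 17 members with a promoter (5.88%), against 1.44% of all genes and of the kept ones. These members, too, were counted with or without a call.

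Of 15 fatty acid synthesis genes 2 were higher and 1 lower (2 and 0 without day +2, 2 and 1 without day +4, 2 and 0 with the looser filter, 4 and 2 with quantile scaling, 4 and 3 with the authors' values). The list's shares, 13.3% and 6.67%, were below those of all genes, 27.5% and 21.1%. Scd1, the stearoyl-CoA desaturase, was at 0.20 on both WT arrays and at 1.97 and 1.68 in sh8, 3.08-fold higher (adjusted p = 0.00195). Mlxipl, the glucose-sensing factor ChREBP, was 2.00-fold higher, although its second probe differed by 0.20. Acacb, the mitochondrial acetyl-CoA carboxylase, was 1.495-fold lower (adjusted p = 0.0190, and 0.0664 to 0.181 without day +2, without day +4 and with the looser filter).

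Of 19 glucocorticoid targets, 9 were higher (47.4%, against 27.5% of all genes) and 1 lower, with a median of 0.49 (5 and 0 without day +2, 5 and 1 without day +4, 5 and 1 with the looser filter). Hsd11b1, which regenerates active glucocorticoid inside cells, was at -0.76 and -0.91 in WT and 2.08 and 2.28 in sh8, 8.06-fold higher (3.01 ± 0.14 SE, adjusted p = 0.00101). Mt2, a metallothionein, was 2.59-fold higher, Glul, glutamine synthetase, 2.54-fold and Dusp1, a MAP kinase phosphatase, 2.38-fold (its adjusted p was 0.0891 and 0.0842 without day +2 and day +4). Not all classic targets were called higher. Fkbp5 differed by -0.28 with no call, and Tsc22d3, which encodes GILZ, was lower by -0.51 (adjusted p = 0.0386, and 0.266 without day +2 and 0.112 with the looser filter).

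Of 18 cAMP targets 4 were higher and 4 lower (2 and 1 without day +2, 3 and 2 without day +4, 2 and 1 with the looser filter, 6 and 3 with normexp). Each share, 22.2%, was near that of all genes, 27.5% higher and 21.1% lower. Rgs2, a brake on G protein signalling, was 2.58-fold higher, and Ptgs2, cyclooxygenase-2, 2.90-fold higher. Ppargc1a, the mitochondrial coactivator, was 2.25-fold lower (adjusted p = 0.00612) and Id1 1.72-fold lower (0.0110, and 0.0578 with the looser filter). Without day +2 the log2 differences of Ppargc1a and Id1 were -0.89 and -0.60, and neither call held. In the insulin and IGF list 6 of 25 were higher and 4 lower (4 and 1 without day +2, 5 and 2 without day +4, 6 and 1 with the looser filter). Its shares, 24% and 16%, did not exceed those of all genes. Igfbp6, an IGF-II binding protein, was at 0.34 and 0.73 in WT and 3.12 and 3.33 in sh8, 6.47-fold higher, and Igfbp4 2.95-fold higher. The probe rule left out Igfbp5, which was at -2.65 and -1.99 in WT and 2.99 and 3.00 in sh8, a larger difference (5.635 and 4.987). Igfbp2 and Igfbp3, also left out, differed by 0.72 and 0.59 and by -0.55 and -0.11. These 3 were not tested. Igf1 was 4.15-fold lower, while its 3 other probes ranged from -2.05 to -0.059. Pik3ca, the catalytic PI3 kinase subunit, was 5.69-fold higher (adjusted p = 0.00117, but 0.117 without day +2 and 0.0859 without day +4).

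Of the 26 lists, glycolysis and hypoxia had the highest share of members called higher. Of 28, 20 were higher and 0 lower, with a median of 0.65 at day +2 and 0.64 at day +4, and 0.35 before induction (9 without day +2, 12 without day +4, 14 with the looser filter). Ankrd37, a target of HIF-1, was at -0.18 and 0.46 in WT and 2.18 and 2.36 in sh8, 4.37-fold higher (adjusted p = 0.00165). Egln3, the oxygen-sensing prolyl hydroxylase, was 3.29-fold higher, Aldoc, an aldolase, 3.09-fold, P4ha1, a collagen prolyl hydroxylase, 2.67-fold and Vegfa, the endothelial growth factor, 2.12-fold. Ldha (0.14), Hk2 (-0.18), Tpi1, Pgk1, Eno1, Pfkm, Gapdh and Aldoa gave no call. The core of the HIF element, ACGTG on either strand, was in the promoters of 21 of the 28 (75%), against 21.8% of all and 27.6% of kept genes. The 28 include the members without a call, so this share describes the list and not the line difference. A match here, too, describes the letters only. The promoter of Ankrd37 (chr8:45999801-46000100, minus strand, GRCm38.p6, from RefSeq) is shown for the member with the largest difference, with both matches in capitals.
Ankrd37: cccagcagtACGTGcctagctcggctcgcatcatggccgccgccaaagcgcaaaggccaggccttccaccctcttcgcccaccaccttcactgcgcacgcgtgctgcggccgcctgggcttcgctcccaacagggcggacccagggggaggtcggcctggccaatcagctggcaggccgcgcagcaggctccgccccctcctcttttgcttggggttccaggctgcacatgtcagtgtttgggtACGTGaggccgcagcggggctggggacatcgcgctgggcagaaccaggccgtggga

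**Figure D4:**
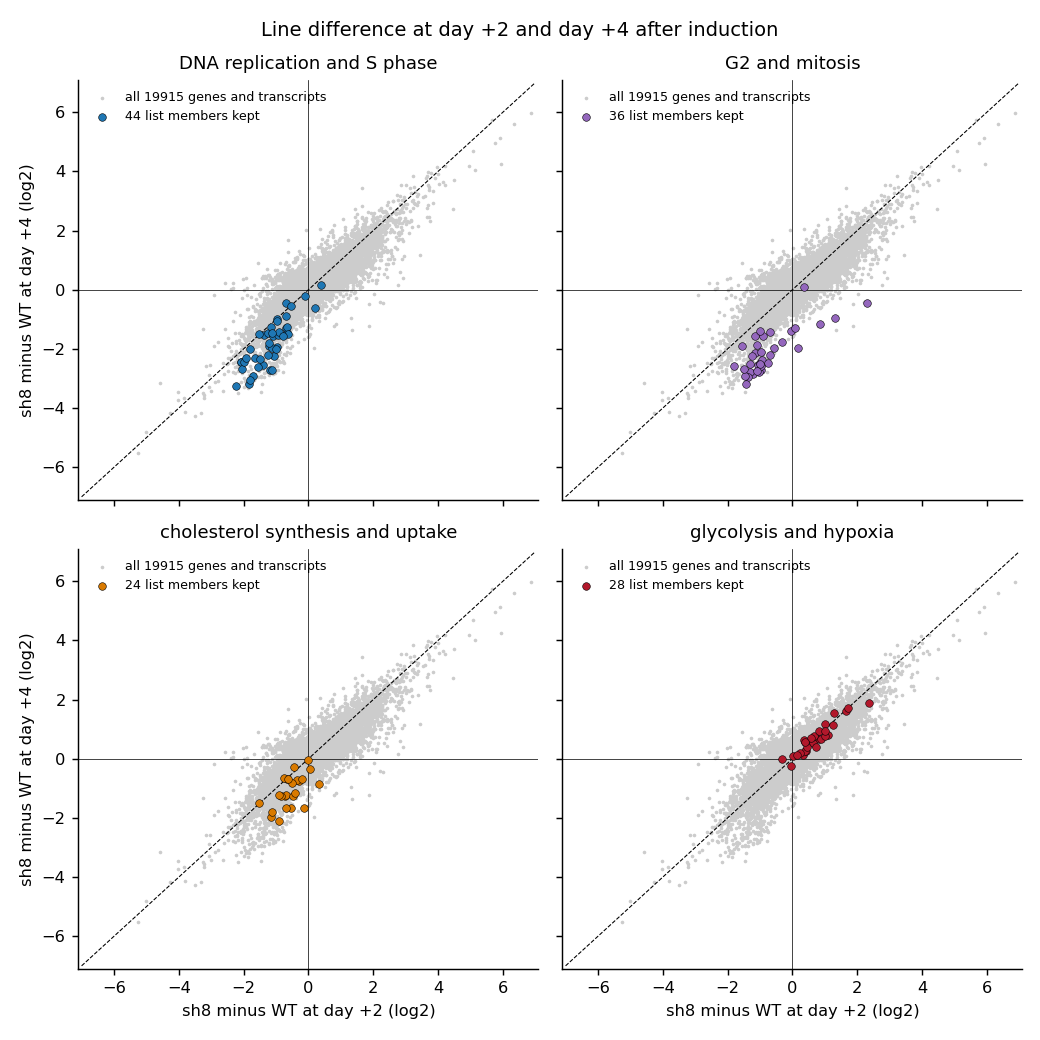
Line difference at day +2 (horizontal) against day +4 (vertical), both sh8 minus WT in log2, for all 19915 genes and transcripts (grey) and the kept members of 4 lists (colour). The dashed line marks equal differences at both days. S phase, mitotic and cholesterol genes lie mostly below it, with larger negative differences at day +4, and glycolysis genes lie along it.

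Mitochondrial and proteasome genes were lower by small amounts. Of 39 respiratory chain genes 19 were lower and 0 higher, with a median of -0.33 (4 without day +2, 5 without day +4, 4 with the looser filter, 12 with quantile scaling and 12 with the authors' values). The complex I subunits Ndufa9 and Ndufa5 were 2.05-fold and 1.99-fold lower, Cycs, cytochrome c, 1.88-fold and Atp5o, of the ATP synthase, 1.85-fold. Of 31 proteasome genes 15 were lower and 0 higher, median -0.37 (4, 6 and 4 in the same first 3 settings, 24 with a variance trend). Psmd14, the deubiquitinase of the lid, was 1.99-fold lower and Psma7 1.85-fold lower. Of 25 fatty acid oxidation genes 8 were lower and 3 higher (5 and 3 without day +2, 4 and 2 without day +4, 4 and 2 with the looser filter). Decr1 was 2.26-fold lower on its brighter probe and -0.13 on the other, and Cpt1a, the entry step of the pathway, 2.57-fold higher. Ribosomal protein genes were a contrast: 36 of 37 gave no call, and their median was 0.013.

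In the amino acid and unfolded protein list 9 were lower and 8 higher of 38 (3 and 2 without day +2, 13 and 6 without day +4, 5 and 2 with the looser filter). At 23.7% lower and 21.1% higher, the list lay near the shares of all genes, 21.1% and 27.5%. The lower ones were the tRNA synthetases Aars, Gars and Sars, asparagine synthetase (Asns), the disulphide isomerase Pdia4, and Psph, Phgdh, Shmt2 and Mthfd2 of serine and one-carbon metabolism. Shmt2 was 4.01-fold lower (adjusted p = 0.00176, but 0.172 without day +2 and 0.107 without day +4), Mthfd2 3.03-fold and Phgdh, the first enzyme of serine synthesis, 2.97-fold. Hspa5, the main chaperone of the endoplasmic reticulum, gave no call (0.19). Slc7a3, an arginine transporter, was 2.65-fold higher. In the lysosome list 8 of 30 were lower and 3 higher (3 and 0 without day +2, 5 and 1 without day +4, 3 and 1 with the looser filter), with Ctsk, the protease cathepsin K, 3.36-fold lower. Of 31 antioxidant genes 9 were higher and 3 lower (4 and 0 without day +2, 5 and 0 without day +4, 5 and 0 with the looser filter). The lysosome share lower, 26.7%, and the antioxidant share higher, 29.0%, were near those of all genes, 21.1% and 27.5%. Gclc, the rate-limiting enzyme of glutathione synthesis, was 3.26-fold higher, at 1.98 and 2.05 in WT and 3.58 and 3.85 in sh8.

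Cytokine and complement genes moved both ways. Of 31 inflammatory mediators 17 were higher and 8 lower, with a median of 0.56 (5 and 2 without day +2, 7 and 4 without day +4, 8 and 3 with the looser filter). Il33, an alarmin cytokine, was at -0.76 and -0.97 in WT and 2.59 and 1.91 in sh8, 8.65-fold higher (3.11 ± 0.15 SE, adjusted p = 0.00111). Il6 was 3.05-fold lower, at 3.51 and 2.81 in WT and 1.78 and 1.33 in sh8, and C4b, a complement component, 2.33-fold lower. Leukocyte markers had a higher summed level in sh8 as well. Of 19 on the array 18 were well above background on both WT arrays and 19 on both sh8 arrays, and their summed level was 8.19 and 9.23 in WT and 12.3 and 11.2 in sh8. Before induction it was 7.11 and 8.29 in WT and 10.7 and 10.2 in sh8, and the median line difference of the kept ones was 0.46 before and 0.42 after, against 0.095 and 0.56 for the inflammatory list. Their part in the result was not tested.

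Of 42 interferon response genes 16 were lower and 2 higher, with a median of -0.75 at day +2 and -0.20 at day +4 (0 and 1 without day +2, 14 and 2 without day +4, 2 and 1 with the looser filter). The list's median had been -0.76 before induction. Bst2, tetherin, was at 3.66 and 3.03 in WT and 1.82 and 1.95 in sh8, 2.74-fold lower (adjusted p = 0.00569, and 0.107 without day +2). Ifi47, an interferon-induced GTPase, was 2.74-fold lower (0.00470, and 0.0949 without day +2) and Irgm1 1.83-fold lower (0.00981, and 0.104 without day +2). With the looser filter the call of Irgm1 was lost as well (adjusted p = 0.0555 in limma). Isg20, an exonuclease, was 2.33-fold higher.

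In the matrix list 19 of 42 genes were higher and 8 lower, with a median of 0.27 (9 and 1 without day +2, 7 and 6 without day +4, 7 and 5 with the looser filter). Timp3, a metalloproteinase inhibitor, was at -2.03 and -1.58 in WT and 0.24 and 0.17 in sh8, 4.01-fold higher. Fbln1 (3.70-fold, adjusted p = 0.0549 without day +4) and Fbn1, fibrillin 1 (3.17-fold), were higher, and so were the basement membrane genes Col4a1 (2.42-fold) and Lamc1 (2.51-fold). Postn, periostin, was 3.48-fold lower (adjusted p = 0.00159, and 0.0662 without day +2). Of 30 actin and contractile genes 9 were lower and 1 higher (5 and 0 without day +2, 6 and 0 without day +4, 5 and 0 with the looser filter). Fhl2 was 5.29-fold lower, Flna, filamin A, 2.05-fold and Acta2, smooth muscle actin, 1.77-fold.

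In the TGF-beta and BMP list 11 of 30 were higher and 7 lower (3 and 3 without day +2, 3 and 6 without day +4, 7 and 4 with the looser filter, 13 and 12 with a variance trend). The list's shares were 36.7% higher and 23.3% lower, against 27.5% and 21.1% of all genes. The secreted BMP antagonist Grem1 was 2.61-fold lower and Id4 5.31-fold lower. Of 28 preadipocyte and Wnt genes 10 were lower and 4 higher (3 and 3 without day +2, 7 and 3 without day +4, 3 and 4 with the looser filter). Sfrp2, a secreted Wnt modulator, was at -1.44 and -2.03 in WT and -4.93 and -6.30 in sh8, 14.8-fold lower, and it was well above background on only 1 of the 2 sh8 arrays. With normexp its difference was -1.95 in place of -3.88. Wnt6 was 4.82-fold lower, and the surface markers Ly6a and Thy1 were 3.47-fold and 2.08-fold higher. Hox genes, which pattern the body axis, were called in 13 of 19 kept members, 8 lower and 5 higher (6 and 2 without day +2, 5 and 3 without day +4, 7 and 2 with the looser filter). Hoxa3 (3.56-fold), Hoxa2 (3.42-fold) and Hoxa7 (2.44-fold) were lower and Hoxc6 3.94-fold higher.

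Whether the line difference itself changed with induction was tested over all 8 arrays. It changed for 1094 genes (5.49%), up in 836 (4.2%) and down in 258 (1.3%), and the 2 periods lay on different slides, so period and slide cannot be told apart. Without day +2 it was 0 genes (3759 at an unadjusted p under 0.05), so every call of this test named in the text was lost. Without day +4 it was 113, without day -2 282 and without day 0 613. With the looser filter it was 0 (5268 unadjusted), with normexp 1769 and with a variance trend 1911. By list, 11 of 44 S phase genes and 3 of 36 mitotic genes changed down and 0 up. Uhrf1 went from -0.56 before to -2.75 after, a change of -2.19 (adjusted p = 0.0475). Pimreg, Trip13 and Kif15, all mitotic or meiotic genes, changed by -2.21, -2.17 and -2.01.

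Single genes outside these lists changed as well. Ptn, the growth factor pleiotrophin, was at 5.45 and 5.73 in WT and 2.82 and 2.30 in sh8 after induction, and its line difference changed from -0.85 to -3.03. Olfr1413, an olfactory receptor gene, stood at -2.95 and -3.12 before and -0.08 and 0.29 after in WT, and between -3.33 and -2.71 throughout in sh8. Ecscr, an endothelial surface protein, and Slc39a4, a zinc transporter, were higher in sh8 before, and the line difference shrank from 3.89 to 1.02 and from 2.75 to 0.67 with a higher WT level after induction. Endothelial markers were also higher after induction in both lines, with a summed level of 3.16 and 4.92 in WT and 5.25 and 5.998 in sh8, against 1.62 to 2.65 before. Their part in these changes was not tested.

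In the other direction Il33 changed by 3.35, from -0.24 before to 3.11 after. Abca3, the lipid transporter of lung surfactant and itself one of the lung markers, stood at -4.64 and -4.34 in sh8 before and at -0.75 and -0.31 after, while WT stayed between -0.70 and 0.33. Pappa2, a protease of IGF-binding proteins, changed by 3.07 and turned from -2.21 to 0.86. Mlana (from -2.35 to 0.63) and Zfp994 (from -0.69 to 2.23) changed with a lower WT level after induction, and Olr1, an oxidised LDL receptor, turned from -1.40 to 1.20. Gfi1b turned from -1.42 to 1.18. Gdpd2 approached the WT level in sh8, from a line difference of -3.05 to -0.41, and gave no call after induction (adjusted p = 0.134).

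The gap between the days was largest for the mitotic genes above and for a few others. Oasl1, an interferon-induced gene, had a line difference of 2.76 at day +2 and 0.17 at day +4. Toward day +4 Spats2l went from -2.58 to 0.23, Slc16a12, a creatine transporter, from -2.33 to 0.06, Bdh1, of ketone metabolism, from -2.02 to 0.37 and Fgf21, a metabolic hormone, from -0.61 to 1.67. Each of these single-day differences comes from 1 array per line. The gap itself was not tested. Stmn3 went from -0.06 to 2.03, and Sprn and 2310005E17Rik from -1.92 and -1.99 to 0.41 and 0.01. Pcdhb19 (1.35 and -1.34), Scgb1b29 (2.20 and -0.42) and Olfr1211 (-1.56 and 0.90) are dim, at or below -3.34 on all 4 arrays. Scgb1b29 is a secretoglobin, a family that the lung marker list also holds.

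For some genes 1 line was not well above background after induction, so only a bound can be given, from the lowest signal among probes well above background. Such a bound applied to 37 called genes and transcripts, 7 of them named. Nlgn3, a synaptic adhesion protein, was at least 6.73-fold higher and Avil, the actin-binding protein advillin, at least 5.60-fold higher in sh8. Syne1 was at least 1.93-fold, Trem3 at least 1.61-fold and Resp18 at least 1.02-fold higher, the last well above background on 1 of the 2 sh8 arrays. Zscan4a was at least 2.06-fold lower and Calhm5, well above background on 1 WT array, at least 1.36-fold lower. With normexp the calls of Trem3, Resp18, Zscan4a and Calhm5 were lost (adjusted p = 0.246, 0.0681, 0.0523 and 0.651). Nlgn3, Avil and Syne1 kept theirs, but their log2 differences were 0.95, 0.75 and 0.30, smaller than the bounds above. The bounds therefore hold only for the main background correction and are no guaranteed minimum. With the looser filter the difference of Zscan4a was -0.082 (adjusted p = 0.630), so its bound did not hold there, and Calhm5 lost its call (0.0677). Calls were also lost for Zscan4a without day +2 (0.0580), for Calhm5 without day +4 (0.0890) and with a variance trend (0.120), and for Resp18 with the authors' values (0.0786).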

How the data were processed

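Total RNA from WT and sh8 3T3-L1 cells was hybridised to 8 one-colour Agilent arrays, 4 of which enter the comparison. Although the series text names another maker, per the file headers the authors scanned Agilent arrays, and per the submitters' processing notes they read them with Agilent Feature Extraction 11.0.1.1. The deposited files give a processed intensity per spot, and the flags that mark a spot well above background or an outlier. The authors also deposited a log2 value table with equal column medians of 6.38. It correlated with the same array at r = 0.994 to 1.00 and was used as an alternative. The steps behind it are not stated in the labels or headers.

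Controls were left out (1377 of 44397 spots), repeat spots averaged, and 46 of 39429 probes dropped for outlier flags. RefSeq accessions gave 27207 probes a symbol from RefSeq's gene list of GRCm38.p6, and 12176 got none. The headers name the build mm9, so the only coordinates printed are those of the RefSeq promoter table. Values were log2 processed intensity minus the array's 75th percentile. A gene with several kept probes (3551 genes) was represented by the one with the highest mean.

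Tests used limma 3.58.1 in R 4.3.3 (lmFit, eBayes), with Benjamini-Hochberg adjusted p under 0.05. The comparison after induction had day and line in the model, 4 arrays and 1 residual degree of freedom. The change of the line difference used all 8 arrays, with day, line and their interaction with the period, and 2 residual degrees of freedom. Errors are limma's SE. The procedure was also run on simulated data with noise independent between arrays. That run held no effect of slide position, clone or lung RNA, so it cannot bear on those. The number of arrays limits the precision, and nothing in the labels says that they come from separate cultures.

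The comparison, the 26 gene lists and the 6 marker lists were chosen with earlier results of these data known. Genes named are the 10 largest called differences each way with the same sign on both days and signal well above background on all 4 arrays, up to 4 members per list with the lowest p, the 8 largest each way for the change and for the gap between days, up to 6 bounds each way, and Pparg, Cebpa, Cebpb, Cebpd, Fabp4, Adipoq, Lpl, Cdkn1a, Dnmt1 and Pcna. Other members named were chosen after their values were seen. A few genes that the rule chose are not reported here. Alternatives were quantile scaling, normexp background correction with an offset of 50 (on median signals, since mean signals were not used here), the authors' values, other probe filters, averaged probes, a variance trend, all 8 arrays in 1 model, and each day left out.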

Additional observations from a re-analysis of the deposited data

Results flagged for a closer look

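The test of whether the line difference changed with induction called 1094 genes by limma, and the values that follow are changes of the line difference from before to after induction, in log2. Period and slide cannot be told apart. Without the arrays of day +2 none of these calls passed the threshold.

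The difference moved toward lower levels in sh8 for the cell cycle genes Uhrf1 (-2.19), Pimreg (-2.21), Trip13 (-2.17), Kif15 (-2.01), Mad2l1 (-1.51), Mcm6 (-1.49), Gins2 (-1.45), Foxm1 (-1.26) and Racgap1 (-1.002), for the maintenance methyltransferase Dnmt1 (-1.04) and for the CDK4 inhibitor Cdkn2c (-0.95). It also moved down for Olfr1413 (-3.58), Ecscr (-2.86), Ptn (-2.18), Slc39a4 (-2.08), the fatty acid carrier Fabp5 (-1.48), Calhm5 (-1.39), Slc7a2 (-1.11), Hoxa2 (-1.09) and smooth muscle actin, Acta2 (-0.90).

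It moved toward higher levels in sh8 for Abca3 (3.42), Il33 (3.35), Pappa2 (3.06), Mlana (2.98), Zfp994 (2.92), Gdpd2 (2.64), Gfi1b (2.60), Olr1 (2.60), Resp18 (2.17), Cnr1 (2.12) and C4b (2.07). Smaller rises were those of F730043M19Rik (1.89), Nlgn3 (1.73), the demethylase Tet2 (1.56), Avil (1.22), Jarid2 (1.098), Mlxipl (1.06), Gstt1 (1.002), Gclc (0.99), Rgs2 (0.96), Syne1 (0.89) and Trem3 (0.88). For Resp18, Nlgn3, Avil, Syne1, Trem3 and Calhm5 1 line was not well above background after induction.

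Some of the probes that the rule left out carried signal after induction. The 10 lung epithelium markers among them reached summed levels of 4.31 (WT, day +2), 6.21 (WT, day +4), 6.59 (sh8, day +2) and 6.60 (sh8, day +4), relative to the 75th percentile, against at most 0.138 before. Of the 10 fat cell genes left out, 6 were lower and 4 higher in sh8 at day +4. Adipoq, Cfd and Plin1, a lipid droplet protein, were among the lower ones, by -3.50, -2.80 and -1.84. Pck1, Car3, Cidec and Mrap were higher by 2.51, 0.59, 0.49 and 0.40. Pck1 was well above background on 0 of the 2 WT arrays and 1 of the 2 sh8 arrays, so its value is a difference from background. These differences were not tested.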

How the results depend on the processing

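The count of genes that differ after induction lay between 8170 and 10757 under quantile scaling, normexp, the authors' values, averaged probes, a variance trend, all 8 arrays in the model and the filter on all 8 arrays, against 9683. It was 5185 with the looser filter and 4191 to 5592 with a day left out. The count of genes whose line difference changed with induction was 1769 with normexp, 1911 with a variance trend, 0 with the looser filter (5268 unadjusted by limma) and 0 to 613 with a day left out, and the cause was not tested. Of 163 genes chosen by the naming rule 145 were called, and 29 of these calls were lost without day +2, 25 without day +4 and 15 with the looser filter. Each of the other settings ended at most 6. Of 52 counts of list members called in 1 direction, 36 moved by over 1.5 times without day +2, 27 without day +4, 35 with the looser filter and at most 10 in each other setting. Some named genes without a call had differences of opposite sign with one or the other day left out, each from 1 array per line after induction. Among them Kif20b was -1.17 and 0.86 without day +2 and day +4, Olfr1211 0.90 and -1.56, and Pcdhb19 -1.34 and 1.35. The medians of the TGF-beta, antioxidant, insulin, ribosomal, adipogenic factor, fatty acid synthesis and unfolded protein lists changed sign under at least 1 setting and give no direction. The comparison is paired by day through the model. The replicate numbers, which are the same for every array, give no further pairing. Signal over background limits the dim probes, where normexp ended calls that rest on a bound. Normexp also made several of the largest differences smaller.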
